A study of Mus musculus with 14 samples.

Results

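RCOR2 binding was mapped in mouse embryonic stem cells (ESCs), and 11626 of the 53367 peaks in the deposited RCOR2 list were narrow peaks deep inside genes. They were chosen by rule: a peak on chromosomes 1 to 19 or X, under 1000 bp wide, with its summit inside a RefSeq protein-coding gene and at least 5 kb from every protein-coding gene end. Of the other peaks, 19596 were narrow and lay outside genes at 5 kb or more from a gene end, 11630 were narrow and within 1 kb of a gene end, 8298 were narrow and 1 kb to under 5 kb from one, and 2066 were wide. The members lay in 4491 protein-coding genes, here called host genes, of 13889 that were long enough (10001 bp or more) to hold one.

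The ESCs had the C57BL/6 background and grew in serum with leukemia inhibitory factor and the kinase inhibitors PD0325901 and CHIR99021. RCOR2 was precipitated with anti-HA agarose from cells expressing RCOR2-HA (2 samples), with negative controls from WT cells (1 sample) and from cells expressing mCherry (1 sample). RNA-seq was done on RCOR2 KO ESCs (2 libraries) and WT ESCs (2 libraries) of the same background and medium. The tagged protein was expressed in cells labelled as WT ESCs, and the labels do not give the number of KO clones, the deleted part of the gene, or whether replicates came from different cultures. Each p-value therefore reflects only how far these particular libraries spread.

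RCOR2 belongs to the CoREST family of corepressors. These proteins join the histone H3K4 demethylase LSD1 (KDM1A) to the deacetylases HDAC1 and HDAC2, and in ESCs the complex is known for acting at promoters and enhancers of developmental genes. The interior of a gene can hold enhancers, alternative start sites and starts of non-coding RNAs, so a summit far from both gene ends need not act on the gene around it.

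Libraries held 2951498 and 1974865 counts in KO and 2368804 and 1286393 in WT. Rcor2 itself stood at 54.2 and 53.9 CPM (counts scaled to 1000000 per library) in KO and at 81.4 and 81.5 CPM in WT, and the log2 change was -0.59 (SE 0.23, adjusted p = 0.0636 by edgeR). With the deleted part unknown, these reads do not check the labels. All 10 ESC markers were tested, with summed levels of 4587 and 4584 CPM in KO and 4491 and 4206 in WT; Klf4 (log2 1.30) and Nanog (0.48) were called higher and Fgf4 (-0.83) and Dppa5a (-0.47) lower. The 7 trophoblast markers summed to 160.2 and 184.2 CPM in KO against 39.2 and 38.1 in WT; all 4 that were tested (Eomes, Krt8, Krt18 and Gata3) were called higher, and Cdx2 had 0 counts in both WT libraries. Primitive endoderm markers summed to 46.3 and 27.2 CPM in KO and 8.43 and 19.0 in WT. The 1 that was tested, Dab2, was called higher (log2 1.72, edgeR adjusted p = 0.00195). Fibroblast markers summed to 18.6 and 11.0 CPM in KO against 16.4 and 26.7 in WT, and the 1 tested, Col1a1, was not called. Neural markers summed to 655 and 700 CPM in KO and 584 and 441 in WT, mostly from Stmn2, which was called higher, while Nes was called lower; 3 of 7 were tested. Median log2 changes of all tested genes were shifted on chromosome 6 (0.92), chromosome 8 (0.52), chromosome 3 (0.48) and chromosome 11 (-0.49), and lay between -0.16 and -0.0025 on each of the other autosomes and X. On chromosome Y, which the rule for members leaves out, the median was -6.02 over 2 tested genes. The part of these shifts and of the other cell types' markers in the results below was not tested, except where values after centring each chromosome on its median are given.

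A small set of the members sat on gene starts that RefSeq places inside a gene. The summit fell within a RefSeq start window (250 bases before to 50 after a start) for 219 of the 11295 members on chromosomes that the start table covers, which is 1.94%. The share was 0.685% for narrow peaks far outside genes, 3.35% for those at 1 kb to under 5 kb from a gene end and 21.3% within 1 kb. In 185 of the 219 the start belonged to the host gene itself, and in 34 to another gene. RefSeq gives the sequence of each start window, and the windows at the 6 strongest of the 219 members are shown. They are read 5′ to 3′ on the gene's strand of GRCm38.p6, with GGGCGG and CGGAAG and their reverse complements in capitals.
Hlcs, chr16:94290242-94290541, minus strand: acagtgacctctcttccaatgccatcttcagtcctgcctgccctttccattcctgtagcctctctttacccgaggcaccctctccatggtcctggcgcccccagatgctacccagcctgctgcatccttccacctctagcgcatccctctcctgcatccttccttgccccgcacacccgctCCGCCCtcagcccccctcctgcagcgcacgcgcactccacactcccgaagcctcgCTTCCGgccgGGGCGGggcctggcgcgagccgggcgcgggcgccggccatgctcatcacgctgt
Idh1, chr1:65179093-65179392, minus strand: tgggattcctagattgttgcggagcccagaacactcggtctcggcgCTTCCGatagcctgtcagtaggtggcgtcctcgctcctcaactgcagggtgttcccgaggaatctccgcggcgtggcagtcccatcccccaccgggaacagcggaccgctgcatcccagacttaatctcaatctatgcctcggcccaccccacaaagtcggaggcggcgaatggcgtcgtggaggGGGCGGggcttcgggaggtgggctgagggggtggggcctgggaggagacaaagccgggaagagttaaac
Osbp2, chr11:3774619-3774918, minus strand: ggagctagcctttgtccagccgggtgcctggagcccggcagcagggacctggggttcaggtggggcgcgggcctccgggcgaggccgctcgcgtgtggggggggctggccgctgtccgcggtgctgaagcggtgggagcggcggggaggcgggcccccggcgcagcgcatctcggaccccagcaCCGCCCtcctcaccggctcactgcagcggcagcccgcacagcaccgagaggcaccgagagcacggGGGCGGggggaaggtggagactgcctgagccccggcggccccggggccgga
Gm36459, chr9:64811366-64811665, minus strand: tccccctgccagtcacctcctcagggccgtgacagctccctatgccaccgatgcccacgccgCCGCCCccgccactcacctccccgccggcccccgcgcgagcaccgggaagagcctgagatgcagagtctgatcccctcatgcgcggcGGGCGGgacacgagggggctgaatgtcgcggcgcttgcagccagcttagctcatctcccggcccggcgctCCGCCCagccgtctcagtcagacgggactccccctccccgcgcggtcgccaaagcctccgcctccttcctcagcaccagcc
Dnmbp, chr19:43879719-43880018, minus strand: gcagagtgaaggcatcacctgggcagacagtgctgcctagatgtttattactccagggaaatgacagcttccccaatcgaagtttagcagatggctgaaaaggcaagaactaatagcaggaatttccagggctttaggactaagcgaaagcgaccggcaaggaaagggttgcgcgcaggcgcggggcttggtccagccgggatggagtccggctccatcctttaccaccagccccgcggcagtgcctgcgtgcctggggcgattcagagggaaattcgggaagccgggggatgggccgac
Ulk4, chr9:121277123-121277422, minus strand: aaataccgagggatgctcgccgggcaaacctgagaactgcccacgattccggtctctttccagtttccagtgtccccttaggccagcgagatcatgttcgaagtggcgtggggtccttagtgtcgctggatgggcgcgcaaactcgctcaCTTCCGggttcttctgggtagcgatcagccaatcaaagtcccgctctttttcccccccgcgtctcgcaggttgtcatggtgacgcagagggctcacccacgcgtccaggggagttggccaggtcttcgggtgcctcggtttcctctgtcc

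These 6 windows belong to genes of unlike function. Hlcs encodes the ligase that attaches biotin to carboxylases, and its peak had a fold enrichment of 14.0 over control and a −log10 q of 42.5, with the summit 130 bases before the start. At Idh1, the cytosolic isocitrate dehydrogenase, the peak had a fold of 13.1 and a −log10 q of 38.8. Osbp2, an oxysterol-binding protein, followed with 9.19 and 21.5. The lncRNA Gm36459 starts inside Dennd4a, where the peak had 8.73 and 19.4. Dnmbp, a scaffold that activates CDC42, and Ulk4, a kinase-related protein, each had 8.27 and 17.4. Neither of the 2 host genes that were tested was called in KO against WT, by edgeR or DESeq2, nor passed an unadjusted p of 0.05. Idh1 stood at 54.9 and 54.9 CPM in KO and 57.3 and 70.1 in WT (log2 -0.20, SE 0.25, edgeR adjusted p = 0.639). Hlcs stood at 3.80 and 5.23 CPM in KO and 1.26 and 8.38 in WT (log2 0.05, SE 0.79, adjusted p = 0.978). Osbp2, Dennd4a, Dnmbp and Ulk4 had too few counts to be tested.

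The start windows that held a member summit were rich in CpG. They had a median of 20 CpG dinucleotides (231 windows), against 5 in the 4053 windows placed by the same distance rule inside genes but holding no member summit, and 7 in all 32851 windows. The sets also differed in kind: 191 of the 231 windows were starts of protein-coding genes, against 1960 of the 4053. The part of this difference in the values of this paragraph was not tested. Either strand of GGGCGG, the core of the GC box, was present in 64.1% of the windows with a summit, 19.7% of the internal windows without one and 35.7% of all windows. CGGAAG, the core of ETS-family sites, was present in 23.8%, 8.41% and 16.9%. Both GGGCGG and CGGAAG contain a CpG, and windows of equal CpG content were not compared. The octamer ATGCAAAT was in 2.16%, 1.78% and 1.74%, CACGTG in 8.66%, 4.71% and 7.15%, TGACGTCA in 1.30%, 0.888% and 1.79%, and TATAAA in 4.33%, 14.5% and 13.6%. Parts of the RE1 element bound by REST were about as frequent in each: TCAGCACC in 1.73%, 1.88% and 1.65%, GGACAG in 23.4%, 23.0% and 22.2%. Each motif was counted on its own on both strands, so matches of different motifs can share bases. A match is a description of the letters, and windows of alternative starts of 1 gene share bases.

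**Figure D1:**
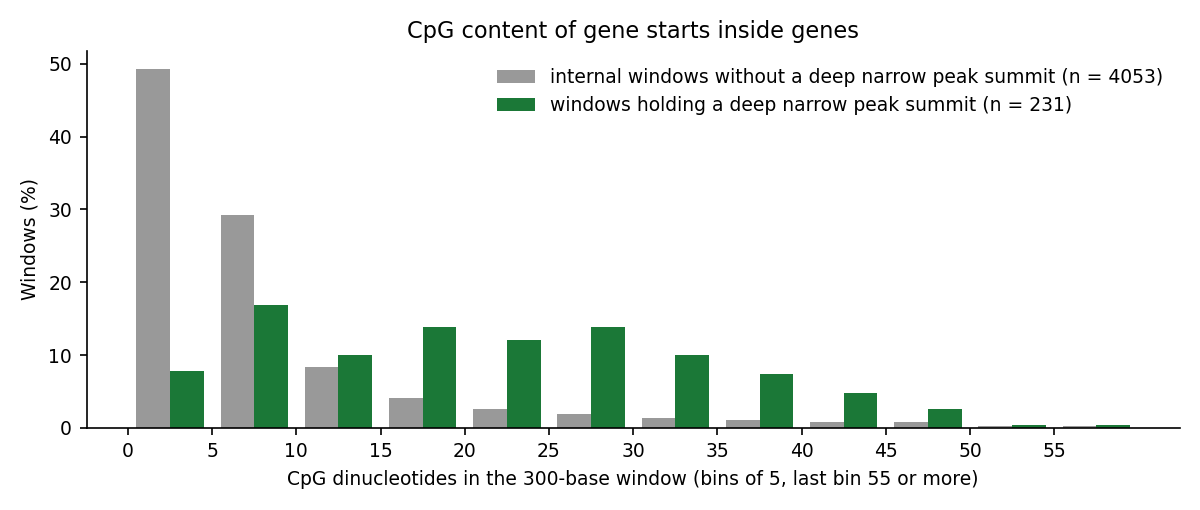
Share of RefSeq start windows inside genes (y axis, percent of windows) by the number of CpG dinucleotides in 300 bases (x axis, bins of 5), for 4053 windows without a summit of a deep narrow peak (grey) and 231 windows with one (green). The grey windows pile up in the lowest bins, around a median of 5, and the green windows are spread around a median of 20.

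Host genes of members at internal starts had a median WT level of 21.5 CPM over 201 genes, against 7.98 over all 4401 host genes in the count table. Of those 201 genes 148 were tested, of which 14 were called higher and 14 lower in KO at an edgeR adjusted p under 0.05. Over all 10241 genes tested, 10.4% were called higher and 9.30% lower, so these shares were near the background. The strength of these 219 members did not set them apart: their median −log10 q was 4.46 and their median fold 4.38, against 4.95 and 4.38 over all members.

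Members covered 5 of the 1005 RefSeq miRNA hairpins on those chromosomes, and 2 of them belong to the miR-302 cluster with miR-367, a polycistron typical of pluripotent cells that lies inside Larp7, a gene for a 7SK RNA-binding protein. The peak at chr3:127545332-127545623 covered the hairpins of Mir302c and Mir302a, with a fold of 3.82 and a −log10 q of 4.95. A stronger peak, at chr3:127544609-127545115, lay just upstream with a fold of 4.96 and a −log10 q of 9.40. The mature miRNAs of the covered hairpins and of their neighbours in the cluster are shown to compare their seeds (bases 2 to 8, in capitals), as RefSeq gives them.
mmu-miR-302a-5p: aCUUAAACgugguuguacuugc
mmu-miR-302c-5p: gCUUUAACaugggguuaccugc
mmu-miR-302c-3p: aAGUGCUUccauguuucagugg
mmu-miR-302b-3p: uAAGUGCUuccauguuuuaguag
mmu-miR-302d-3p: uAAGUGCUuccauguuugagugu
mmu-miR-367-3p: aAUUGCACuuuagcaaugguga
The seed of miR-302b-3p and miR-302d-3p was AAGUGCU. For miR-302c-3p the entry starts 1 base later, so its seed reads AGUGCUU, and miR-302a-5p and miR-302c-5p carry CUUAAAC and CUUUAAC. The other covered hairpins were Mir7687 in Gse1, Mir432 in Rtl1 and Mir1249 in 5031439G07Rik, with −log10 q values from 3.23 to 5.16. Larp7, chosen after the values were seen, held 5 members and stood at 339 and 328 CPM in KO and 280 and 238 CPM in WT. Its log2 change of 0.36 (SE 0.16, edgeR adjusted p = 0.102) was not called, and was -0.12 after centring chromosome 3.

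Most members were weak peaks. Their median width was 245 bp, their median fold enrichment 4.38 (quartiles 3.92 and 5.30) and their median −log10 q 4.95, as given by the authors' peak caller, which selected them. Narrow peaks far outside genes had nearly the same medians (247 bp, 4.38 and 4.87), and the 389 wide peaks that met the same distance rule had 7.35 and 15.4. The 3 most frequent fold values (3.92, 4.15 and 4.38) were shared by 7.54%, 7.47% and 6.73% of members, so the fold of a weak peak moves in steps. Only 406 members (3.49%) reached a −log10 q of 20 and 71 reached 50. None of the 17 peaks in the 2 deposited lists of TALE pull-downs at the Nanog locus (13 and 4 peaks) shared a base with a member.

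At the distance limit, the members nearest inside were in Bicdl1 (5001 bp from a gene end, −log10 q 5.89), Lmod1 (5002 bp, 3.79) and Zmiz1 (5007 bp, 5.16). The narrow peaks nearest outside were in Myo1f (4997 bp, 5.16), Col6a4 (4996 bp, 6.30) and Tapt1 (4995 bp, 3.79). At the width limit, the widest members were in Tmem143 (999 bp, −log10 q 16.9), Pax7 (998 bp, 11.6) and 1700019D03Rik (998 bp, 9.85). The narrowest wide peaks at the same distance were in Csmd2 (1007 bp, 62.2), Tenm3 (1007 bp, 9.00) and Rnf125 (1008 bp, 43.8).

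The 12 strongest members lay in 12 different genes, and most of those genes had few or no RNA counts in WT. The strongest was in Celf4, a neuronal RNA-binding protein (chr18:25667845-25668724, fold 42.6, −log10 q 213). Next came Phf21b, related to the CoREST subunit PHF21A (chr15:84829393-84830106, 39.5 and 198), Erich1 (chr8:14072272-14073097, 30.7 and 173) and Xkr6 (chr14:63712718-63713683, 29.8 and 136). Prdm6, Tiam1, Cep128, Gpc6, Srp54c, Rimbp2, Garnl3 and Myo18b followed, with folds from 29.2 down to 26.3 and −log10 q from 131 down to 109. Rimbp2 organises presynaptic active zones, Tiam1 activates RAC and Gpc6 is a cell-surface glypican.

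Of these 12 host genes, 5 were tested and none was called by edgeR or DESeq2; 1, Celf4, had an unadjusted edgeR p under 0.05. Celf4 stood at 2.42 and 4.71 CPM in KO and at 9.27 and 11.4 CPM in WT. The groups did not overlap, and the log2 change was -1.56 (SE 0.69, edgeR adjusted p = 0.108). Tiam1 stood at 12.4 and 4.19 CPM in KO and 16.0 and 17.5 CPM in WT, again without overlap (log2 -0.95, SE 0.52, adjusted p = 0.215). With 2 libraries per group such separation can easily arise by chance. Its share over all genes was not counted, so nothing is read from it. Erich1 was even across libraries, with 64.2 and 59.6 CPM in KO and 59.9 and 58.7 CPM in WT (log2 0.06, SE 0.24, adjusted p = 0.901). The values of Cep128 and Garnl3 overlapped between the groups. Phf21b had 1.73 and 7.32 CPM in KO and 0 and 3.05 CPM in WT; Xkr6, Prdm6, Gpc6, Srp54c, Rimbp2 and Myo18b were also too low to test.

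Many host genes of the strongest members had few RNA counts. With a −log10 q of 50 or more, the 71 members lay in 70 genes; of 69 in the count table, 29 were tested (42.0%), their median WT level was 1.90 CPM and 15 had 0 counts in both WT libraries. In the 5 lower classes of −log10 q (under 3, 3 to 5, 5 to 10, 10 to 20 and 20 to 50) between 59.3% and 63.8% of host genes were tested, and the median WT level was 7.64 to 10.1 CPM. In that strongest class, chosen after the values were seen, 1 gene was called higher and 7 lower of 29, and 2 higher and 4 lower after centring each chromosome, against 10.4% and 9.30% of all genes tested before centring. The difference between classes was not tested.

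Members were about as dense inside genes as narrow peaks were outside them. Gene interiors (positions inside a gene and 5 kb or more from any gene end) covered 853.5 Mb and held 13.6 members per Mb. Outside genes, 1423 Mb at the same distance held 13.7 narrow peaks per Mb. The density inside genes rose with the level of the gene in WT cells. It was 7.69 per Mb in genes with 0 counts in WT, 9.44 above 0 to 1 CPM, 14.5 above 1 to 10 CPM, 17.9 above 10 to 50 CPM and 21.4 above 50 CPM. Without chromosome 3 the same classes held 7.60, 9.05, 14.2, 17.0 and 20.9 per Mb. Genes that passed the count filter held 18.6 per Mb and the others 9.45 per Mb. CPM is not divided by transcript length here, so these classes order genes by counts and not by molecules.

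Along the gene, members were spread over the whole interior with a slow fall toward the 3′ end. The strand was known for 9156 of 11862 pairs of a member and a host gene. With gene length cut into 10 equal bins, the first 4 bins held 14.9, 14.7, 14.9 and 15.7 members per Mb of interior, the next 13.7, and the last 9.54. The median summit lay 36940 bp from the 5′ end of its host and 22145 bp from the nearest gene end. Of 7371 gaps between neighbouring summits in the same gene, 27.2% were under 1 kb, and the median gap was 5243 bp. Such gaps exist only in genes with 2 or more members, and those of the densest regions were included. Gaps in overlapping genes were counted once per gene. No expected spacing was computed, so clustering of members in general was not tested.

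**Figure D2:**
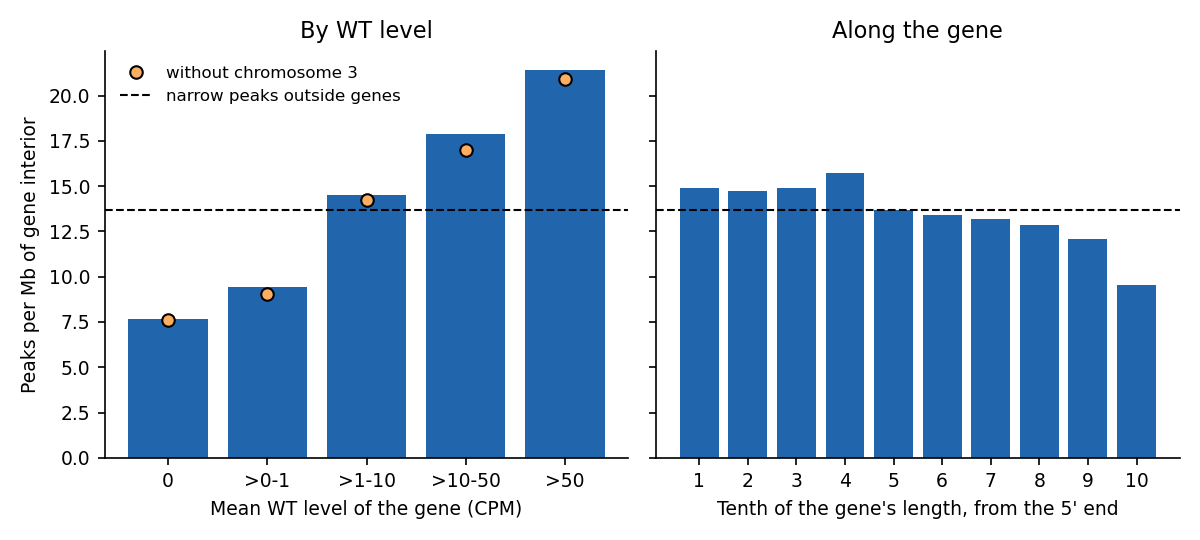
Deep narrow peaks per Mb of gene interior (y axis) by the mean WT level of the gene in CPM (left, with orange points for the value without chromosome 3) and by bin of gene length from the 5′ end (right, 10 equal bins). The dashed line is the density of narrow peaks outside genes, 13.7 per Mb; bars rise from 7.69 to 21.4 with WT level and fall to 9.54 in the last bin.

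The members were unevenly spread over chromosomes. Chromosome 3 held 21.0 per Mb of gene interior, followed by chromosome 4 and by chromosome 5 with 17.7, against 10.3 on chromosome 1, 10.4 on chromosome 6 and 3.01 on X. In windows of 2 Mb the median was 6 members and the highest count was 95, at chr3:122000001-124000000. Of the 22 windows with 40 or more members, 5 were on chromosome 3. The stretch chr3:116000001-140000000, chosen after these windows were seen, held 505 members (4.34% of all) at 60.9 per Mb of gene interior, while the rest of chromosome 3 held 11.4 per Mb and the other chromosomes 13.2. Its members had a median fold of 3.71 and a median −log10 q of 4.51, against 4.38 and 5.16 on the other chromosomes. Members and other peaks together numbered 1479 in the stretch. Genes of that stretch had a median log2 change of 0.27 in KO against WT (67 tested), against 0.50 on the rest of the chromosome (402 tested).

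**Figure D3:**
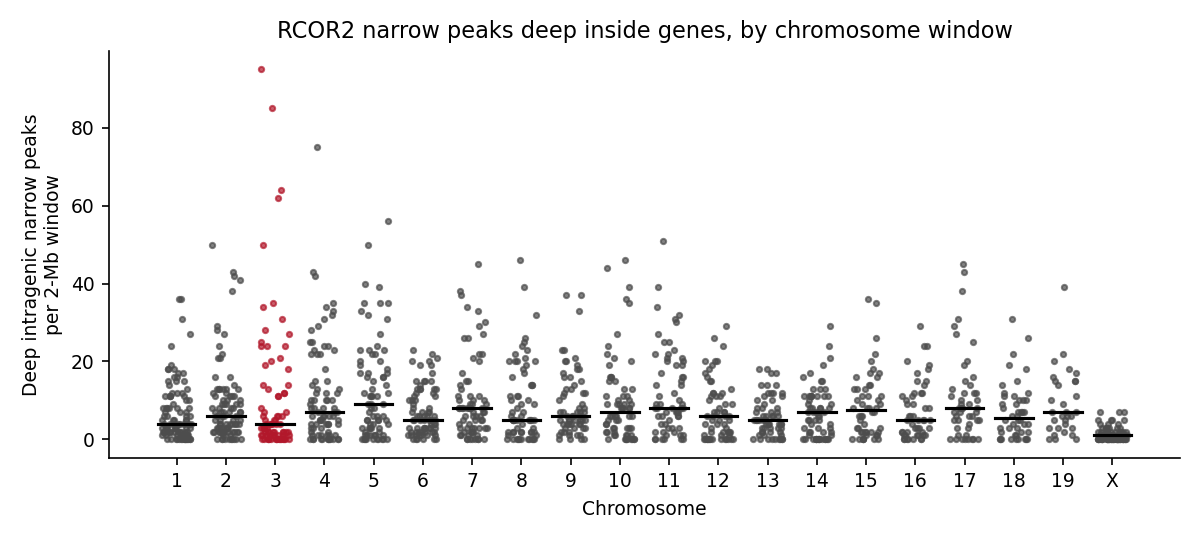
Deep narrow peaks per 2-Mb window (y axis), each point a window, by chromosome (x axis; chromosome 3 in red; horizontal bars are chromosome medians, and the sideways spread is only for display). Most windows hold under 20 peaks, and 4 of the 5 fullest windows, with 62 to 95 peaks, are on chromosome 3.

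The genes with most members came in large part from that stretch. Ank2, the ankyrin that anchors ion channels to the membrane skeleton, held 49, the most of any gene, at 86.2 per Mb of its interior. Bcar3, an adaptor of the p130Cas pathway, held 41 in 100 kb of interior. Lef1, a transcription factor that carries out WNT signalling with beta-catenin, held 37 in 104 kb, or 356 per Mb. Sgms2 (sphingomyelin synthase) held 26 and Manba (lysosomal beta-mannosidase) 24. Elsewhere, Etl4 held 37 in 890 kb, Gse1, a protein associated with LSD1 complexes, held 30, the zinc finger gene Zfp978 held 26, and Dlgap1, a postsynaptic scaffold, and Trak1, a mitochondrial transport adaptor, held 24 each. Zfp978 belongs to a cluster of near-identical zinc finger genes, so reads there may be split between copies. The strongest member was at chr3:127398814-127399361 in Ank2 (fold 11.2, −log10 q 44.5), at chr3:131211858-131212468 in Lef1 (8.09 and 23.4) and at chr3:135537446-135538001 in Manba (12.7 and 47.8).

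Lef1 fell in KO and Manba rose. Lef1 had 4.14 and 2.09 CPM in KO and 42.2 and 38.1 CPM in WT. The groups were far apart, with a log2 change of -3.60 (SE 0.47, edgeR adjusted p = 2.12e-08), and the largest adjusted p with 1 library left out was 4.10e-07. Manba had 34.2 and 34.5 CPM in KO and 7.17 and 2.29 CPM in WT, with a log2 change of 2.71 (SE 0.46, adjusted p = 7.74e-06), and 2.23 after centring chromosome 3 (adjusted p = 0.000374). Ank2 had 0.690 and 1.57 CPM in KO and 7.17 and 5.33 CPM in WT, a log2 change of -2.52 (SE 0.89, adjusted p = 0.0371). That call for Ank2 rested on few counts and was lost without KO replicate 1 (adjusted p = 0.425), without KO replicate 2 and without WT replicate 2. Bcar3, Etl4, Gse1 and Trak1 were not called, with log2 changes from -0.22 to -0.03. Dlgap1 had 10.0 and 6.80 CPM in KO and 0.843 and 4.57 CPM in WT (log2 1.83, SE 0.79, adjusted p = 0.0948). Sgms2 was not tested.

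Among all 10241 genes tested in KO against WT, 1062 (10.4%) were called higher and 952 (9.30%) lower at an edgeR adjusted p under 0.05. Host genes were called at similar rates: of 2639 tested, 308 (11.7%) were higher and 259 (9.81%) lower. The counts of called hosts fell to 157 higher and 125 lower without KO replicate 1, to 186 and 117 without KO replicate 2, and to 242 and 161 without WT replicate 1. DESeq2 called 180 higher and 126 lower. Genes long enough to hold a member but without one had 8.30% higher and 9.02% lower of 4965. The median log2 change was -0.01 in host genes and -0.02 over all genes tested. Counting the calls of the same fit on the other chromosomes than 3, 6, 8 and 11 gave 7.34% higher and 9.03% lower for 2015 host genes (148 and 182), 4.01% and 8.08% for 3836 long genes without a member, and 6.01% and 8.09% over all 7822 remaining genes. A separate fit made without the genes of those 4 chromosomes called 145 host genes higher and 136 lower. After centring each chromosome, 7.16% of host genes were higher and 7.24% lower, against 6.27% and 6.67% of all genes tested. Long genes without a member then had 4.65% higher and 6.38% lower.

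Host genes were longer (median 69915 bp, against 33376 bp for all genes that could hold a member), so the groups were also set side by side within 5 classes of length with equal numbers of genes. The share called higher was above that of genes without a member in each class, from 17.5% against 9.66% in the shortest to 9.89% against 5.90% in the longest. The share called lower was 14.4% against 8.25% in the shortest class, and 7.59% against 8.34%, 9.09% against 9.83%, 9.33% against 9.48% and 10.8% against 10.4% in the others. The shortest class had 97 tested host genes.

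The shares called were highest in genes with many members, in both directions. With 1 member 11.1% were higher and 8.34% lower of 1211 tested, with 2 members 8.46% and 11.5% of 520, with 3 to 4 members 12.5% and 9.39% of 511, with 5 to 9 members 16.3% and 12.3% of 300, and with 10 or more 17.5% and 13.4% of 97. The median WT level also rose, from 7.77 CPM with 1 member to 18.5 CPM with 10 or more. Without chromosome 3 the last class had 15.7% higher and 13.3% lower of 83. After centring, with chromosome 3 kept, the last class had 12.4% and 11.3%, against 6.27% and 6.67% of all genes tested. The difference between classes was not tested.

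**Figure D4:**
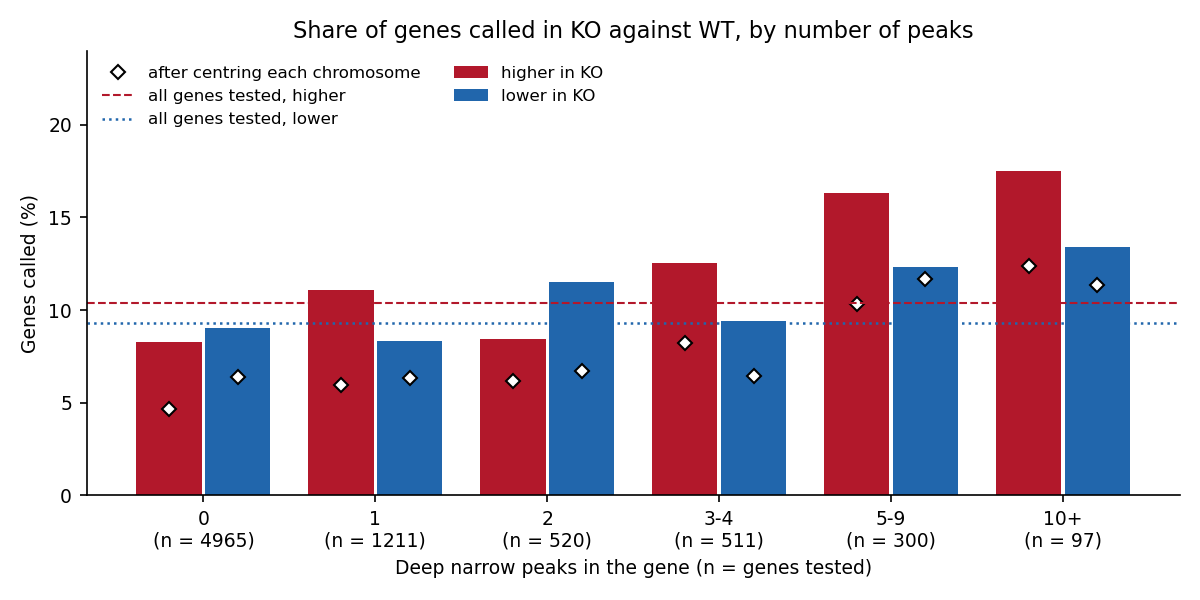
Share of tested genes called higher (red) or lower (blue) in KO against WT (y axis, percent) by the number of deep narrow peaks in the gene (x axis; 0 means long enough to hold one). Diamonds are the shares after centring each chromosome. Lines are the shares over all genes tested before centring (10.4% and 9.30%). After centring, the shares over all genes tested were 6.27% and 6.67%, which are not drawn. Bars reach 17.5% and 13.4% at 10 or more peaks.

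Among called host genes that were tested with the same sign whichever library was left out, the 8 largest falls joined Lef1 with genes of unlike roles. Rap1gap2, a regulator of RAP1 with 10 members, is outside that rule because it was not tested without WT replicate 1; it had 0 counts in both KO libraries and 9.70 and 4.57 CPM in WT (edgeR adjusted p = 0.000252). Cacna2d1, given with the channels, is outside it for the same reason. Zfp981, a zinc finger gene of the same chromosome 4 cluster as Zfp978, had 5.18 and 6.28 CPM in KO and 63.7 and 70.1 CPM in WT (log2 -3.55, SE 0.37, edgeR adjusted p = 2.21e-11); its near-identical relatives make the assignment of its reads uncertain. Lyrm7, an assembly factor of respiratory complex III, had 4.83 and 3.66 CPM in KO and 40.9 and 50.3 CPM in WT (log2 -3.37, SE 0.43, adjusted p = 1.25e-08). Mov10l1, an RNA helicase of the germline piRNA pathway with 3 members, had 2.76 and 0 CPM in KO and 27.4 and 15.2 CPM in WT (log2 -3.72, SE 0.68, adjusted p = 3.07e-05). Every one of these had all KO values below all WT values, which choosing called genes with the largest falls makes likely. Epb41l3 (protein 4.1B, a membrane skeleton protein) had 1.73 and 0 CPM in KO and 14.8 and 14.5 CPM in WT (log2 -3.79, SE 0.80), and Plxdc2 1.04 and 1.05 CPM against 12.2 and 17.5 CPM (log2 -3.74, SE 0.78). Ankrd33b had 3 counts in KO and 39 in WT, a ratio of 17.0 (exact 95% counting interval 5.39 to 85.8). Its call was lost without KO replicate 1 and without WT replicate 1 (adjusted p = 0.0682), and that of Lrrn4 (0 and 2.62 CPM in KO, 13.5 and 14.5 in WT) without KO replicate 1 (adjusted p = 0.0764).

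By the same rule, the largest rises were mostly of genes with almost no counts in WT. Pdgfrl, related to PDGF receptors, had 73 counts in KO and 1 in WT, a ratio of 55.9 (exact 95% counting interval 9.73 to 2239), and Zc2hc1c had 45 and 1 (34.5, 5.88 to 1392). Tspan8, a tetraspanin of epithelial cells, had 32 counts in KO and 0 in WT, at least 8.17-fold higher with a floor of 3 counts over the WT group. St8sia1, the sialyltransferase that makes ganglioside GD3, held 5 members and had 23.1 and 15.2 CPM in KO and 1.26 and 1.52 CPM in WT (log2 3.77, SE 0.70, edgeR adjusted p = 3.86e-05). It lies on chromosome 6, and its log2 change was 2.87 after centring (adjusted p = 0.00359). These calls held with each library left out for Pdgfrl, Zc2hc1c and St8sia1, and that of Tspan8 was lost without KO replicate 2 and without WT replicate 1 (adjusted p = 0.0669). BC053393 (41 counts against 1), Havcr1 (39 against 1), Capn2 (60 against 3) and Gm5134 (43 against 2) lost theirs with 1 or 2 of the 4 libraries left out, with adjusted p up to 0.0898, 0.115, 0.0540 and 0.190. Intervals and floors cover counting error only.

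The host genes with the highest WT levels moved little. Srrm2, a splicing scaffold, had 2753 and 2549 CPM in KO and 2047 and 2440 CPM in WT (log2 0.24, SE 0.14, edgeR adjusted p = 0.242). Cox5a, Akap12 and Pfdn1 were not called, with log2 changes of 0.24, 0.19 and 0.07. Set, a histone chaperone, had 1198 and 901 CPM in KO and 1335 and 1797 CPM in WT (log2 -0.57, SE 0.15, adjusted p = 0.00359), lost without KO replicate 2 (log2 -0.37, adjusted p = 0.393). Igf2bp1, an RNA-binding protein with 11 members, had 1303 and 1155 CPM against 1480 and 1766 CPM (log2 -0.40, SE 0.14, adjusted p = 0.0369). That call was lost without KO replicate 1, KO replicate 2 or WT replicate 2 (adjusted p up to 0.514), and the sign turned to 0.09 after centring chromosome 11 (adjusted p = 0.779).

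In the lists that follow, the counts of called genes stand beside 10.4% higher and 9.30% lower over all genes tested, and with few genes tested per list nothing particular to a list is read from them. Of 28 listed pluripotency transcription factors 18 were long enough to hold a member and 7 were hosts. They held 40 members at 53.3 per Mb of interior, 17 of them in Esrrb. Of the 7, Tfcp2l1 was called higher and Etv5 and Tet1 lower, with a median log2 change of -0.24. Tet1, which the list also holds, is an enzyme and is described with the chromatin regulators. Esrrb, an orphan nuclear receptor of the naive state that was named after its values were seen, held 17 members at 113 per Mb, the strongest at chr12:86501574-86502428 (fold 5.75, −log10 q 9.00). It stood at 201 and 178 CPM in KO and 184 and 157 CPM in WT, overlapping, and was not called (log2 0.15, SE 0.17, edgeR adjusted p = 0.627). Tfcp2l1, another naive-state factor with 4 members, had 403 and 446 CPM in KO and 179 and 290 CPM in WT (log2 0.87, SE 0.17, adjusted p = 6.95e-05). Etv5, an ETS factor downstream of FGF signalling, held 11 members in 48.3 kb and had 50.0 and 47.1 CPM in KO and 129 and 114 CPM in WT (log2 -1.32, SE 0.22, adjusted p = 5.30e-06). Both calls held with each library left out.

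Chromatin regulators and corepressors were hosts in 28 of 43 listed genes (92 members, 17.3 per Mb), and of 26 tested 3 were called higher and 4 lower, with a median log2 change of -0.07. Tet2, which oxidises 5-methylcytosine, held 10 members and had 317 and 291 CPM in KO and 122 and 218 CPM in WT (log2 0.86, SE 0.18, edgeR adjusted p = 0.000248). It lies on chromosome 3, and its call was lost after centring (log2 0.39, adjusted p = 0.160) and without WT replicate 1 (adjusted p = 0.0503). Its relative Tet1 had 727 and 557 CPM in KO and 836 and 898 CPM in WT (log2 -0.43, SE 0.15, adjusted p = 0.0287), lost without KO replicate 2 (adjusted p = 0.616). The DNA methyltransferase Dnmt3a had 32.8 and 31.9 CPM against 45.5 and 89.9 CPM (log2 -1.03, SE 0.29, adjusted p = 0.00631), lost without WT replicate 2 (adjusted p = 0.381). Setdb1, Zmiz1, Sin3a and Cbfa2t2 were the other 4 called, and each lost its call with at least 1 library left out, with adjusted p up to 0.269, 0.190, 0.463 and 0.228. DESeq2 called 2 of the list's hosts higher and 0 lower.

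In the WNT, TGF-beta and receptor kinase list 21 of 39 genes were hosts (94 members), and of 15 tested 1 was higher and 3 lower, with a median log2 change of 0.07. Lef1 is described above. Tcf7l1, a WNT-responsive repressor of the same protein family with 5 members, had 229 and 241 CPM in KO and 132 and 93.0 CPM in WT (log2 1.04, SE 0.18, edgeR adjusted p = 1.06e-05). It lies on chromosome 6 and was at 0.12 after centring (adjusted p = 0.738). The receptor kinase Kit had 43.8 and 41.3 CPM in KO and 89.4 and 70.1 CPM in WT (log2 -0.91, SE 0.25, adjusted p = 0.00472), lost without KO replicate 2 and without WT replicate 1 (adjusted p = 0.137). Znrf3, which removes WNT receptors from the surface, had a log2 change of -1.14 (SE 0.32), lost without KO replicate 2 (adjusted p = 0.141), without WT replicate 2 and after centring chromosome 11.

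Developmental transcription factors were hosts in 41 of 54 genes (159 members, 10.6 per Mb), and of 22 tested 4 were higher and 4 lower, with a median log2 change of 0.35. Ebf1, a factor of B-cell and mesenchymal development, had 16.9 and 17.3 CPM in KO and 3.37 and 3.05 CPM in WT (log2 2.38, SE 0.61, edgeR adjusted p = 0.00322). Zfhx3, with 9 members, had 74.2 and 58.6 CPM in KO and 17.7 and 35.0 CPM in WT (log2 1.40, SE 0.30, adjusted p = 0.000313). Both calls held with each library left out and after centring. Mitf, a melanocyte factor, rose by 1.37 (SE 0.24, adjusted p = 1.28e-05) but stood at 0.45 after centring chromosome 6 (adjusted p = 0.233). Rora, a nuclear receptor, held a member with a −log10 q of 71.4 and had 33 counts in KO and 2 in WT, a ratio of 12.6 (exact 95% counting interval 3.23 to 109), and its call was lost in each of the 3 fits with a library left out that still tested it (adjusted p up to 0.208). The 4 lower genes, none of them lower by DESeq2, were Gli2, Znrf3 (a ubiquitin ligase that the list also holds), Rara and Tead1, with log2 changes from -1.21 to -0.57, and each lost its call with at least 1 library left out (edgeR adjusted p up to 0.158, 0.141, 0.217 and 0.499).

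Genes of neuronal wiring held fewer members per Mb than the 13.6 over all gene interiors, and 9 of 35 axon guidance, 12 of 38 synaptic and 10 of 30 channel and receptor genes had 0 counts in WT. Only 12, 10 and 5 genes of these lists passed the count filter, and all genes that did not pass it held 9.45 per Mb. The lists of cyclic nucleotide signalling (7.38 per Mb) and of cadherins and junction proteins (8.27 per Mb) were also low, so the low density is not particular to neuronal wiring. In axon guidance 25 of 35 genes were hosts (66 members, 6.18 per Mb), and of 9 tested 3 were higher and none lower, with a median log2 change of 0.08; none was lower by DESeq2 either or at an unadjusted edgeR p under 0.05. Epha4, an ephrin receptor, had 147 and 110 CPM in KO and 30.8 and 22.9 CPM in WT (log2 2.23, SE 0.24, edgeR adjusted p = 1.78e-10). Sema5a, a transmembrane semaphorin, had 34.9 and 45.5 CPM against 8.85 and 15.2 CPM (log2 1.79, SE 0.38, adjusted p = 0.000328). Nrp2, a semaphorin co-receptor, had 15.9 and 13.1 CPM against 3.37 and 2.29 CPM (log2 2.29, SE 0.65, adjusted p = 0.00804), lost without KO replicate 1 (adjusted p = 0.148). The KO values were above the WT values for all 3, which choosing genes called higher makes likely.

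Synaptic adhesion and scaffold genes were hosts in 35 of 38, with 213 members at 6.07 per Mb. Of 10 tested, Magi1 was higher and Grip1 lower, and the median log2 change was 0.01. Magi1, a junctional scaffold with 12 members, had 95.3 and 85.8 CPM in KO and 43.0 and 52.6 CPM in WT (log2 0.94, SE 0.24, edgeR adjusted p = 0.00239). It lies on chromosome 6, was at 0.02 after centring (adjusted p = 0.976) and lost its call without KO replicate 1 (adjusted p = 0.0640). Grip1 lost its call in all 3 fits with a library left out that still tested it (adjusted p up to 0.278). Calcium channels and neurotransmitter receptors were hosts in 24 of 30 (91 members, 7.15 per Mb), and of 5 tested Ryr3 and Cacna2d1 were lower, with a median of -0.14, and none was higher by edgeR, by DESeq2 or at an unadjusted edgeR p under 0.05. Ryr3 lost its call with any library left out (adjusted p up to 0.276) and Cacna2d1 without either KO library (adjusted p up to 0.0634). In cyclic nucleotide signalling 19 of 24 were hosts (61 members), and of 4 tested Pde4d was higher and none lower (none by DESeq2 or at an unadjusted p under 0.05), a call lost with 3 of the 4 libraries left out (adjusted p up to 0.338); the median was -0.28.

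Genes of adhesion, cytoskeleton and matrix completed the lists. Cadherin and junction genes were hosts in 18 of 23 (95 members, 8.27 per Mb), and of 9 tested Cdh1 was higher and none lower (none by DESeq2 or at an unadjusted edgeR p under 0.05), with a median log2 change of 0.14. Cdh1, E-cadherin, had 285 and 249 CPM in KO and 151 and 130 CPM in WT (log2 0.92, SE 0.17, edgeR adjusted p = 3.63e-05), and 0.41 after centring chromosome 8 (adjusted p = 0.107). Spectrin, ankyrin and actin scaffold genes were hosts in 20 of 24 (150 members, 16.8 per Mb), and of 14 tested 4 were lower (Ank2, Epb41l3, Sptbn1 and Diaph2) and none higher (0 by DESeq2 and 1 at an unadjusted p under 0.05), with a median of -0.24. Sptbn1 lost its call without KO replicate 1 (adjusted p = 0.0873) and after centring, and Diaph2 without KO replicate 2 (adjusted p = 0.0977) or WT replicate 2.

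Extracellular matrix genes were hosts in 18 of 32 (63 members, 10.1 per Mb), and of 12 tested 4 were higher and 4 lower, with a median log2 change of -0.05. The laminin chains moved in different directions. Lama1 had 48.0 and 68.0 CPM in KO and 21.5 and 13.0 CPM in WT (log2 1.69, SE 0.32, edgeR adjusted p = 6.22e-05). Lama5 had 83.5 and 90.0 CPM against 29.5 and 28.2 CPM (log2 1.58, SE 0.26, adjusted p = 4.02e-06), and Lamc1 123 and 122 CPM against 43.8 and 67.8 CPM (log2 1.16, SE 0.22, adjusted p = 6.99e-05). Lama3 went the other way, with 5.18 and 1.05 CPM in KO and 21.1 and 19.8 CPM in WT (log2 -2.58, SE 0.59, adjusted p = 0.000897). Col18a1, the collagen that yields endostatin, had 41.4 and 26.7 CPM against 116 and 142 CPM (log2 -1.89, SE 0.24, adjusted p = 7.20e-09). Fibronectin, Fn1, had 199 and 228 CPM against 356 and 389 CPM (log2 -0.80, SE 0.16, adjusted p = 9.82e-05). These 6 calls held with each library left out and after centring. Agrn lost its call with any library left out (adjusted p up to 0.266) and after centring (0.0528). Adamts9 lost its call with 3 of the 4 libraries left out (adjusted p up to 0.492) and stood at 0.61 after centring chromosome 6 (adjusted p = 0.559). In bulk RNA, fewer cells of a type and less RNA per cell cannot be told apart.

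**Figure D5:**
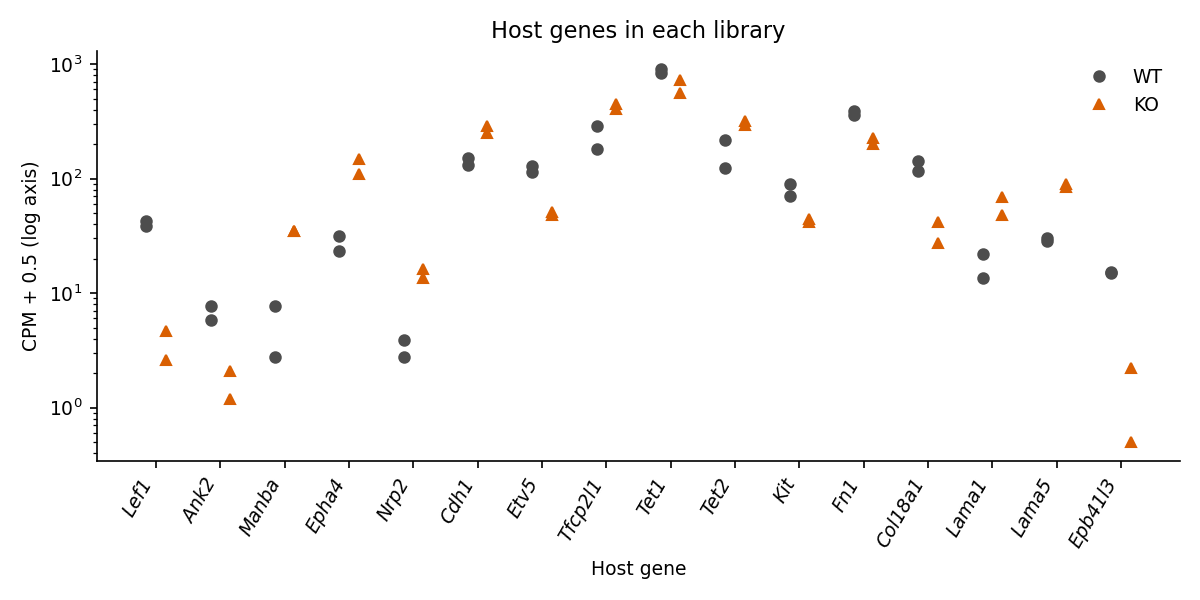
CPM plus 0.5 (y axis, log scale) of 16 host genes (x axis) in each WT library (grey circles) and each KO library (orange triangles). Lef1 falls from 42.2 and 38.1 CPM to 4.14 and 2.09 CPM, and Lama5, Epha4 and Manba lie higher in both KO libraries than in both WT libraries.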

How the data were processed

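The authors deposited raw read counts per gene for each RNA-seq library (per the file headers) and a peak list called on merged libraries (per the labels' protocols). Its fold enrichment ratio and −log10 q are the authors' peak caller's. Tools listed in the submitters' processing notes include STAR 2.5.2b, featureCounts, Bowtie2 2.3.4.1 and MACS2 2.1.1.20160309, with builds GRCm38 and mm10. Gene intervals, start windows and miRNAs came from RefSeq GRCm38.p6. Of 25131 count rows, 98 were not placed on a gene, and 26 rows with symbols turned into dates held 0.136% to 0.158% of counts.

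Peaks were classed by summit and width. KO was tested against WT with edgeR 4.0.16 (quasi-likelihood, filterByExpr, TMM, two-sided, Benjamini-Hochberg over all genes tested, threshold 0.05); CPM used TMM sizes. DESeq2 1.42.0 was an alternative. On simulated counts with 200 genes changed 2-fold, edgeR recovered 62% with 0 false calls. The changed genes were drawn only from genes of higher mean level, and no chromosome was shifted. Neither value therefore carries over to genes with few counts or to the shifted chromosomes. Depth was 1286393 to 2951498 counts per library. The members and lists were chosen with earlier results of these data known. Genes named were the hosts of the 12 strongest members, those ranked in the first 8 by number of members, the 8 largest called changes in each direction with 1 sign when any library was left out, the 6 highest in WT, and called members of the 12 lists, of which 1 is not reported here. No genome was used, so peak sequences were not analysed here; chromosome 18 windows were not used here.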

Additional observations from a re-analysis of the deposited data

How the results depend on the processing

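Calls moved with the method and the libraries. Over all genes 2014 were called, with 1156 by DESeq2, 1325 after centring each chromosome, 949 in a separate fit without the genes of chromosomes 3, 6, 8 and 11, and 1035 to 1699 with 1 library left out. Host genes called higher numbered 308, against 180 by DESeq2, 189 after centring, 145 in that separate fit, 171 for members with a fold of 5 or more, and 157 to 262 with 1 library left out (157 without KO replicate 1). Host genes called lower numbered 259, against 126, 136 (that separate fit), 154 (fold of 5 or more) and 117 to 195 with 1 library left out (117 without KO replicate 2), the first by DESeq2. These counts are out of unlike totals. At a fold of 5 or more 1404 host genes were tested, with 12.2% higher and 11.0% lower, against 11.7% and 9.81% of 2639 in the main setting. The separate fit also held fewer genes than the main fit. The 11626 members became 5809 at a −log10 q of 5 or more and 3826 at a fold of 5 or more. The median WT level of host genes, 7.98 CPM, was 7.69 at a distance of 10 kb or more, 8.32 at widths under 500 bp, 7.46 at a −log10 q of 5 or more, 7.48 at a fold of 5 or more and 7.62 to 8.01 with a WT library left out. Igf2bp1 turned from -0.40 to 0.086 after centring. Of 61 named genes called, 21 were called in every setting that was run. With the replicate number as a block, 1822 genes were called, 278 host genes higher and 232 lower. KO replicate 1 and WT replicate 1 did not deviate together (r = -0.05 over 10241 genes). The labels state no pairing, and this single correlation cannot exclude a shared culture or batch. The cause of these moves was not tested.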

Other observations

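Several genes with 10 or more members that fit none of the lists were called in KO against WT; they were chosen after their values were seen. Arid5b, a DNA-binding cofactor with 14 members, had 397 and 388 CPM in KO and 176 and 162 CPM in WT (log2 1.21, SE 0.16, edgeR adjusted p = 3.38e-08). Mtus2 (19 members) had 42.8 and 54.4 CPM against 17.7 and 16.8 CPM (log2 1.48, SE 0.33). In both genes the KO values lay above all WT values, which choosing called genes makes likely. Pitpnc1, a phosphatidylinositol transfer protein with 21 members, had 56.6 and 70.6 CPM against 162 and 199 CPM (log2 -1.51, SE 0.20, adjusted p = 4.16e-08), and -1.02 after centring chromosome 11. Myo10, the filopodial myosin with 14 members, had 214 and 279 CPM against 449 and 464 CPM (log2 -0.89, SE 0.16, adjusted p = 1.58e-05). Bcat1, a branched-chain aminotransferase with 12 members on chromosome 6, had a log2 change of 1.19 and 0.26 after centring (adjusted p = 0.332).

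Rec114, a meiotic recombination factor, also named after its values were seen, held a member at chr9:58767322-58767828 with a fold of 8.58 and a −log10 q of 61.0. It had 23.1 and 16.2 CPM in KO and 140 and 107 CPM in WT (log2 -2.63, SE 0.25, edgeR adjusted p = 3.04e-12).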
